A study of Mus musculus with 36 samples.

Results

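The optic nerve of the mouse changes character within a short distance of the eye. Ganglion cell axons first cross the unmyelinated optic nerve (UON), where they run without myelin through columns of astrocytes that brace the nerve head against the pressure of the eye. They then enter the myelinated optic nerve (MON), where oligodendrocytes wrap each axon and the current jumps between nodes of Ranvier. The comparison described here is between the 10 injured UON libraries and the 10 injured MON libraries, out of 36 libraries in the whole series, with the injury group as a term in the model, and it asks which genes separate the 2 regions of a nerve that has been damaged. The libraries are chosen by their labels, and no measured value enters the choice.

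All animals were C57BL/6 mice, 2 to 4 months old, with no genetic change. Damage was made on 1 side, either by crushing the nerve in the orbit with forceps or by injecting microbeads into the anterior chamber, which raises eye pressure and serves as a glaucoma model. Crushed nerves were taken after 3 D and 2 W (days, weeks), and bead-injected nerves after 3 D, 2 W and 6 W. Each of these 5 injury groups gave 1 UON and 1 MON library from RNA of 2 female mice and the same from 2 male mice, so the 20 libraries form 10 pools in which UON and MON came from the same animals. The UON piece ended before the opaque start of the myelin, the transition zone was discarded, and the MON piece was the next stretch behind it. In crushed nerves the forceps acted on the myelinated nerve directly, while in the bead model pressure acts at the nerve head. The naïve libraries (2 UON and 2 MON pools of other, untreated mice) did not enter the comparison and are given only beside it. In bulk RNA of a dissected piece, fewer cells of a type in a region cannot be told apart from less of that RNA per cell.

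Regional identity was broad. Of 26201 genes tested, 1290 were higher in injured UON (4.92%) and 1745 were higher in injured MON (6.66%), together 11.6%, at an adjusted p under 0.05 and a difference of more than 1 on the log2 scale (edgeR quasi-likelihood test, here and below unless another is named). In 697 of the UON genes and 1060 of the MON genes, the UON and MON libraries of the same mice differed in the same direction in 10 of 10 pools. The values of the 10 libraries of either region did not overlap at all for 894 genes (3.41%). Called or not, 1182 of all genes were higher in UON and 1632 higher in MON in 10 of 10 pools. Over all genes the median difference was −0.05, a value that the scaling of the libraries sets near 0. Principal component 1, with 20.4% of the variance, separated the regions.

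The 20 libraries held 16200000 to 76700000 estimated counts each, and sex-linked genes matched the labelled sex in 24 of 24 libraries, the naïve ones included. UON crush 2W male stood apart on principal components 1 and 3. MON glaucoma 2W male and MON glaucoma 6W female carried RNAs of a surface epithelium, with a summed level of 1800 and 2200 CPM (counts scaled to a common library total) over 12 such genes against at most 190 in any other library. Without those 2 libraries 1137 genes were called for UON and 1429 for MON. Of the 165 called genes named below, 9 (C1ql1, Itgb3, Bmp4, Aqp4, Osmr, Lyve1, Epcam, Cryba4 and Cdh19) were no longer called in at least 1 of the fits that left out a single library.

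**Figure D1:**
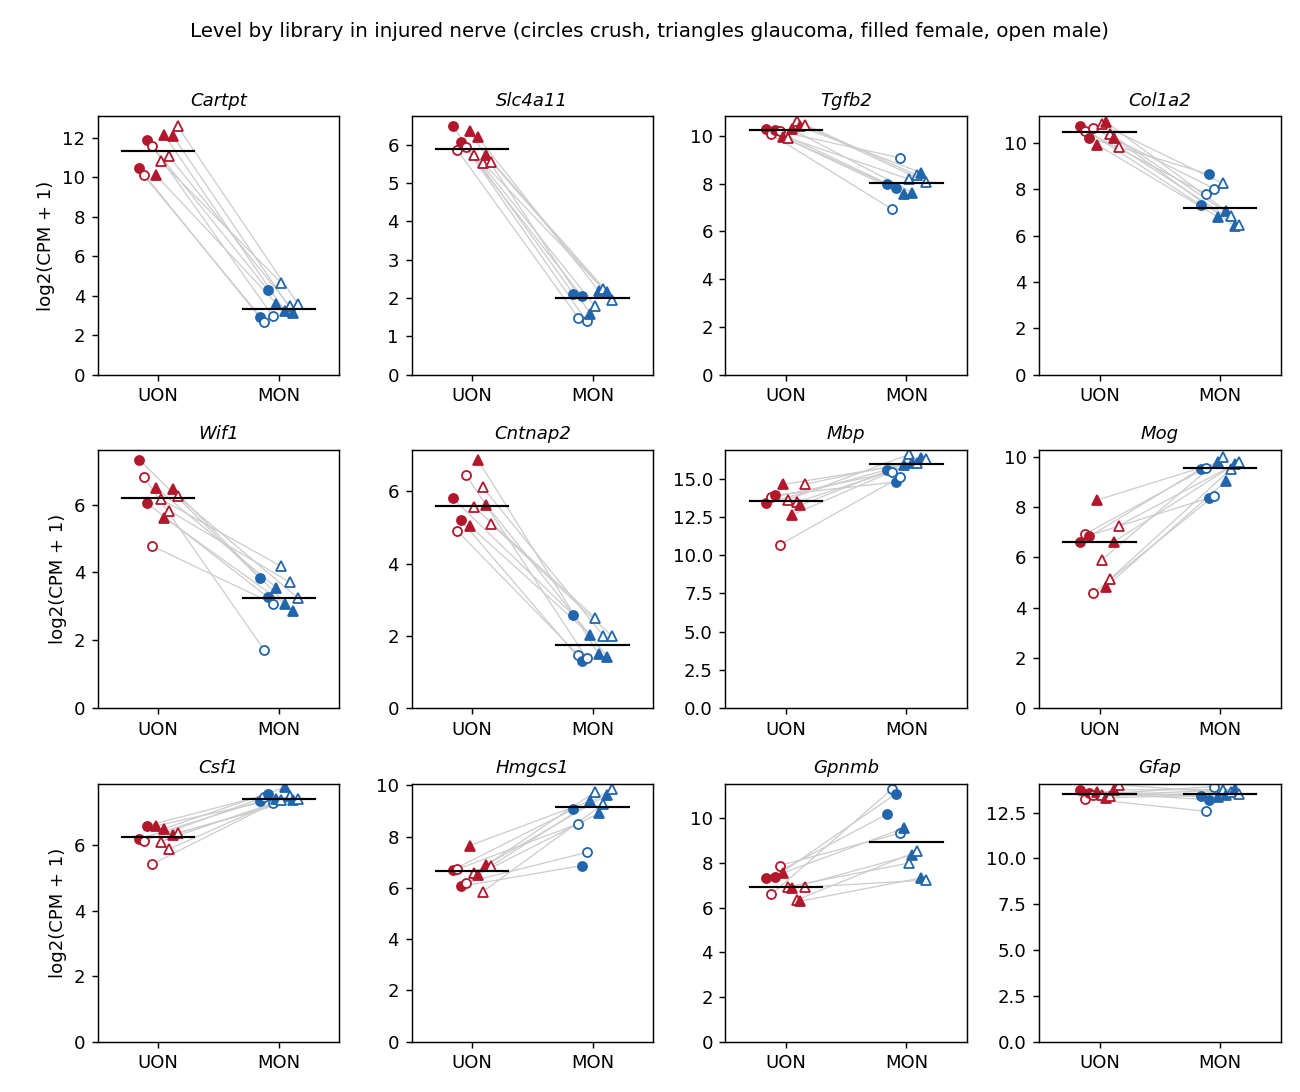
Level of 12 genes in each of the 20 injured libraries, in CPM on a log2 axis (log2 of CPM + 1), with UON in the left and MON in the right column of each panel. Circles are crush and triangles glaucoma libraries, filled for female and open for male pools, lines join the UON and MON libraries of the same mice, and the horizontal bar is the median of 10. Cartpt, Slc4a11, Tgfb2, Col1a2, Wif1 and Cntnap2 lie higher in every UON library, Mbp, Mog and Csf1 in every MON library, Hmgcs1 and Gpnmb are higher in MON in every pool but overlap, and the 2 regions overlap for Gfap.

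The labels were first checked against genes that mark the tissue. Mbp (myelin basic protein) ranged from 1640 through a median of 11900 to 25500 CPM in UON and from 28100 through 64600 to 98200 in MON. The regions did not overlap, and the difference was −2.22 ± 0.32 on the log2 scale (UON minus MON, ± SE, adjusted p = 4.27e-05), a 4.65-fold higher level in MON. Mog, on the outer face of the sheath, was lower in UON by −2.93 ± 0.34. Myelin RNA was still plentiful in the UON piece. Whether it came from cells of that piece or from neighboring tissue was not tested. Gfap, the intermediate filament of astrocytes (chr11:102887336-102900912 of GRCm38, as are the other gene positions), was high on both sides, 9830 to 16500 CPM in UON and 6080 to 15500 in MON, with a difference of 0.09 ± 0.16 (adjusted p = 0.772). Flt1, a receptor of capillary endothelium, differed by 0 ± 0.16. Cd68, a lysosomal protein of phagocytes, was lower in UON by −1.60 ± 0.32, and Gja1, the astrocyte gap junction protein connexin 43, was higher there by 1.47 ± 0.31.

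Myelin genes were the clearest group of the MON. All 20 listed genes of myelin and mature oligodendrocytes were called higher in MON, with a median of −2.41, and each was higher in MON in 10 of 10 pools. For 11 of the 20 (55%) the libraries did not overlap, against 3.41% of all genes. The gap was widest for Ugt8a, which makes the myelin lipid galactosylceramide (−3.32 ± 0.40, median 40.9 CPM in UON and 485 in MON), followed by Ermn, a cytoskeletal protein of oligodendrocytes (−3.06 ± 0.34), and it was narrowest for the iron carrier Trf (−1.12 ± 0.18). The 20 genes summed to 5390 to 50600 CPM in UON and 49800 to 159000 in MON. Within UON the lowest sum belonged to crush 2W male and the highest to glaucoma 3D female. Within MON both crush 2W libraries were lowest, at 49800 and 63900.

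Genes of the oligodendrocyte lineage before it makes myelin followed the same direction. Of 15 tested, 11 were higher in MON and 1, C1ql1, was higher in UON (1.48 ± 0.43, adjusted p = 0.0193, and 0.0567 with the pool of mice as a block). The largest difference was that of Gpr17, a receptor of precursors about to differentiate, at −4.65 ± 0.67, with a median of 2.78 CPM in UON against 92.8 in MON. Its lowest MON value, 8.24 in crush 3D male, lay below the highest UON value, 25.6 in glaucoma 3D female. The lineage factors Olig1 (−2.97 ± 0.31), Sox8 (−3.04 ± 0.26) and Nkx2-2 (−3.26 ± 0.50) showed no overlap between regions, nor did Tnr, the matrix protein tenascin R (−3.57 ± 0.57). Pdgfra, the growth factor receptor that defines precursors, was lower in UON by only −1.21 ± 0.18, and Ptprz1 and Sox6, which astrocytes also make, differed by −0.02 ± 0.15 and 0.01 ± 0.16.

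Cholesterol synthesis, which supplies the lipid of the myelin membrane, was also higher in MON, though not equally in every group. Of 19 enzymes tested, 14 were higher in MON and none in UON, with a median of −1.45. All 19 estimates were negative. Hmgcs1 (chr13:119690379-119708260), which makes HMG-CoA, led with 56.7 to 200 CPM in UON and 116 to 935 in MON (−2.27 ± 0.23, adjusted p = 7.98e-07). Idi1, which interconverts isoprene units, followed at −2.03 ± 0.41. Sqle, the squalene epoxidase, was lower in UON by −1.67 ± 0.18. Tm7sf2 at −0.29 ± 0.17 and Ebp at −0.48 ± 0.12 were among the 5 enzymes not called.

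Sterol enzymes are known to share control by SREBP factors, which bind together with the CCAAT-binding factor NF-Y near the start site, so the promoters of these genes were read from the RefSeq annotation (GRCm38.p6), from 250 bases before to 50 bases after the start. A window was found for 14 of the 19 enzymes, and 14 of 14 held CCAAT on either strand, against 41.1% of all 27025 genes with a window and 7 of 15 myelin genes. The letters TCACNCCAC, a form of the sterol regulatory element, stood in 1 of the 14, against 1.44% of all genes. The windows of Hmgcs1, Idi1 and Cyp51, the lanosterol demethylase, are shown because Hmgcs1 and Idi1 had the largest differences of the list and Cyp51 holds a lone match. Both strands were searched, and no match overlapped another. Capitals mark CCAAT, its reverse complement ATTGG, and in Hmgcs1 the sterol element. The windows lie at chr13:119690101-119690400 on the plus strand, chr13:8885356-8885655 on the plus strand and chr5:4104648-4104947 on the minus strand.
Hmgcs1: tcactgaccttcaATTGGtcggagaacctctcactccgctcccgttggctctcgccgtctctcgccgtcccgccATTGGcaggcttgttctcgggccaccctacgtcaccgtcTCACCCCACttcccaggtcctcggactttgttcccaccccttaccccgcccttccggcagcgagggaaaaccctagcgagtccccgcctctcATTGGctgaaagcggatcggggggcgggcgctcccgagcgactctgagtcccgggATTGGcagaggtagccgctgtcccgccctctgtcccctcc
Idi1: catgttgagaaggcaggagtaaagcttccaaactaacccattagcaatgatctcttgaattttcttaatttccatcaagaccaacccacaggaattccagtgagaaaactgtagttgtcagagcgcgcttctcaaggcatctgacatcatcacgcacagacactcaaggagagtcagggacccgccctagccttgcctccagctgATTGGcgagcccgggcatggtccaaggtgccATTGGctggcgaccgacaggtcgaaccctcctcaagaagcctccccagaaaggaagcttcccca
Cyp51: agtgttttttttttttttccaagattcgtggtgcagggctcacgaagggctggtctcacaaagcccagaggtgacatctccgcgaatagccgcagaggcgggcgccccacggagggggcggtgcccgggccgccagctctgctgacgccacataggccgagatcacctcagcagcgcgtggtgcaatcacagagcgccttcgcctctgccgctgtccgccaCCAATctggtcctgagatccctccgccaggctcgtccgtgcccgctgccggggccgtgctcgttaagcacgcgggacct
The capitals number 5 in Hmgcs1, 2 in Idi1 and 1 in Cyp51. These matches describe the sequence and carry no measure of binding.

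The sum of the 19 enzymes stayed between 498 and 981 CPM in all 10 injured UON libraries, whatever the injury. In MON it was 2200 and 1570 CPM at 3 D after crush (female, male), 593 and 829 at 2 W after crush, 2580 and 2860 at 3 D of glaucoma, 1690 and 2240 at 2 W, and 2990 and 3100 at 6 W. The 2 MON libraries of crush 2W thus lay within the UON range, and the other 8 lay above it. The list's median regional difference was −0.19 at crush 2W, where 1 enzyme was called in that group alone (1.69% of all genes were called higher in MON there), against −1.33 to −1.84 in the other groups, with 7 to 13 called (0.374% to 2.04% of all genes). For Hmgcs1 the regional difference was −1.03 ± 0.35 at crush 2W and between −2.10 and −2.91 elsewhere. The regional difference of 9 of the 19 enzymes was unlike between crush and glaucoma at an unadjusted p under 0.05, against 6.19% of all genes, and none passed after adjustment. In naïve nerve the sums were 763 and 797 CPM in UON and 3610 and 2710 in MON.

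**Figure D2:**
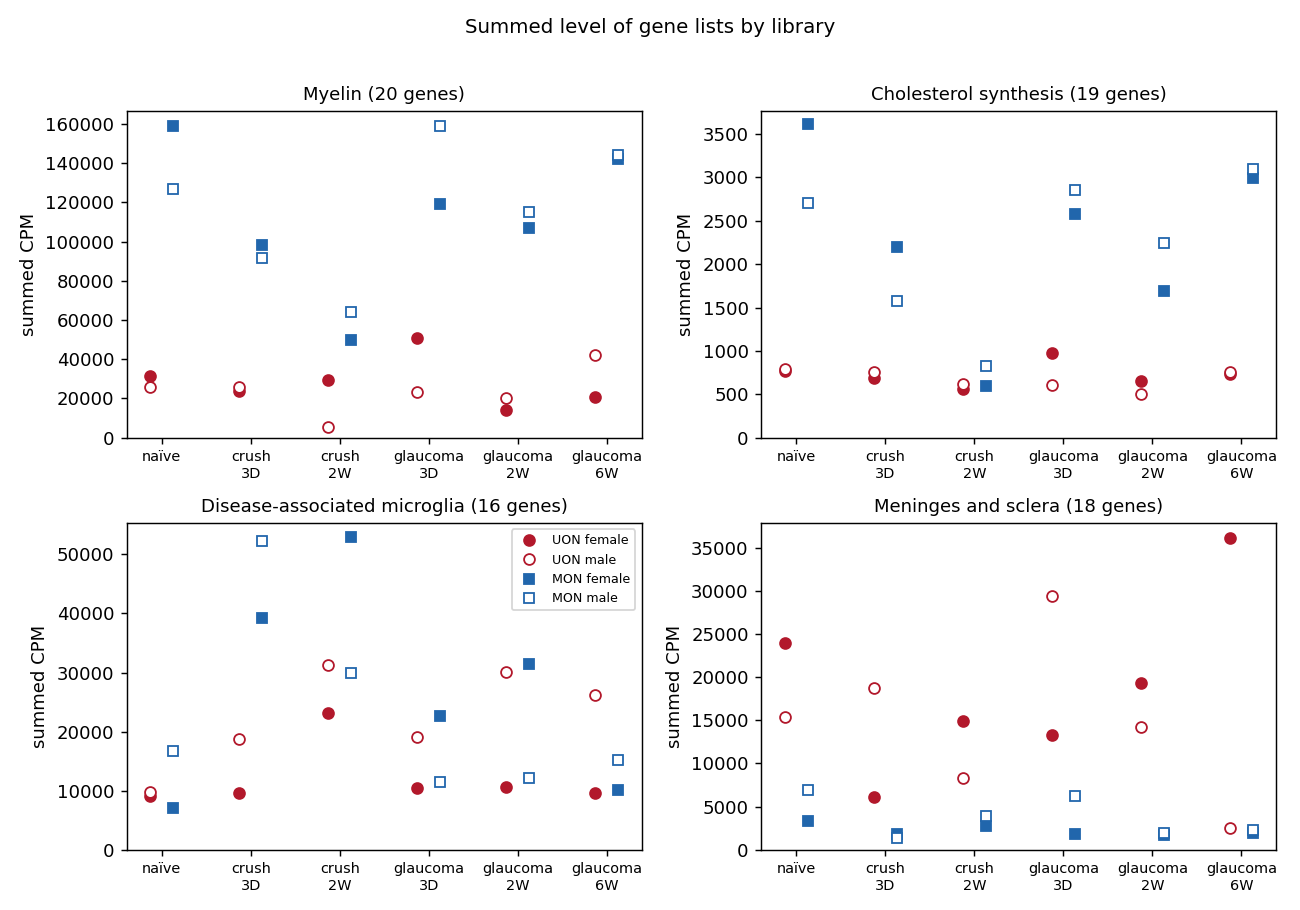
Summed level of 4 gene lists in each library, in CPM, by group from naïve to glaucoma 6W, with circles for UON and squares for MON, filled for female and open for male pools. The 4 panels are myelin, cholesterol synthesis, disease-associated microglia and meningeal genes, each from an axis that starts at 0. Cholesterol enzymes are flat in UON and dip in MON at crush 2W, and the 3 highest microglial sums are those of MON libraries after crush.

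The genes with the largest excess in UON came from several sources. Cartpt, a secreted neuropeptide precursor (chr13:99898489-99901091), ranged from 1100 through 2580 to 6190 CPM in UON and from 5.43 through 9.16 to 24.1 in MON. Every UON library thus lay far above every MON library, with a difference of 7.99 ± 0.40 (adjusted p = 1.12e-09). The serine protease Prss56, a gene tied to eye size in mice and people (chr1:87183313-87188405), ranged from 50.9 to 737 CPM in UON and did not exceed 1.54 in MON (8.71 ± 0.92). Slc4a11, a borate-type transporter known from the cornea (chr2:130684113-130697519), was the most even, with 45.2 to 88.3 CPM in UON against 1.62 to 3.66 in MON (4.48 ± 0.18, adjusted p = 1.5e-11). The kidney and mesothelium factor Wt1 (8.27 ± 0.71), the peptidase Ecel1 (5.83 ± 0.57), the choline-like transporter Slc44a5 (4.95 ± 0.37), the betaine and GABA transporter Slc6a12 (4.56 ± 0.95), the secreted Wnt inactivator Notum (4.51 ± 0.77) and the urothelial Upk3a (4.49 ± 0.67) were also among the 10 largest. Fitted differences of genes near 0 in a region, such as Wt1 with a MON median of 0 and Prss56 with 0.527 CPM, depend on the prior count and are no exact folds.

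On the MON side the largest were Susd5 (−5.26 ± 0.94), the lipid phosphatase Plpp4 (−5.10 ± 0.83), AW047730 (−4.89 ± 0.51), Brinp3 (−4.82 ± 0.61), the proteoglycan neurocan Ncan (−4.78 ± 0.66), Gpr17, the neurexin ligand Nxph1 (−4.52 ± 0.82), the sialidase Neu4 (−4.47 ± 0.84), and the neural tube factors Nkx2-9 (−4.18 ± 0.77) and Dbx2 (−4.10 ± 0.44). In 8 of these 10 the libraries did not overlap, against 3.41% of all genes, though they were chosen for their large differences. The exceptions were Gpr17 and Neu4. Apart from Gpr17 their MON medians were 7.05 to 31.4 CPM.

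Factors that pattern the eye and optic stalk in the embryo were higher in UON of the injured adult nerve. Of 19 tested, 11 were higher in UON and none in MON, with a median of 1.44. Pax2, which specifies the optic stalk and its astrocytes, ranged from 5.1 to 17.3 CPM in UON and 1.62 to 7.4 in MON (1.67 ± 0.26). The forebrain and eye field factors Six3 (1.77 ± 0.22) and Six6 (1.68 ± 0.21) and the nuclear receptor Nr2f2 (1.44 ± 0.20) did not overlap between regions, and its relative Nr2f1 was higher by 1.80 ± 0.24. Sox2 at 0.97 ± 0.25 and Pax6 at 0.75 ± 0.23 stayed under the fold limit. Mitf, the pigment cell regulator, had the opposite sign without a call (−0.92 ± 0.22). The list's median was above 1 in each of the 5 injury groups, 1.04 to 1.53, and 0.82 in naïve nerve.

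**Figure D3:**
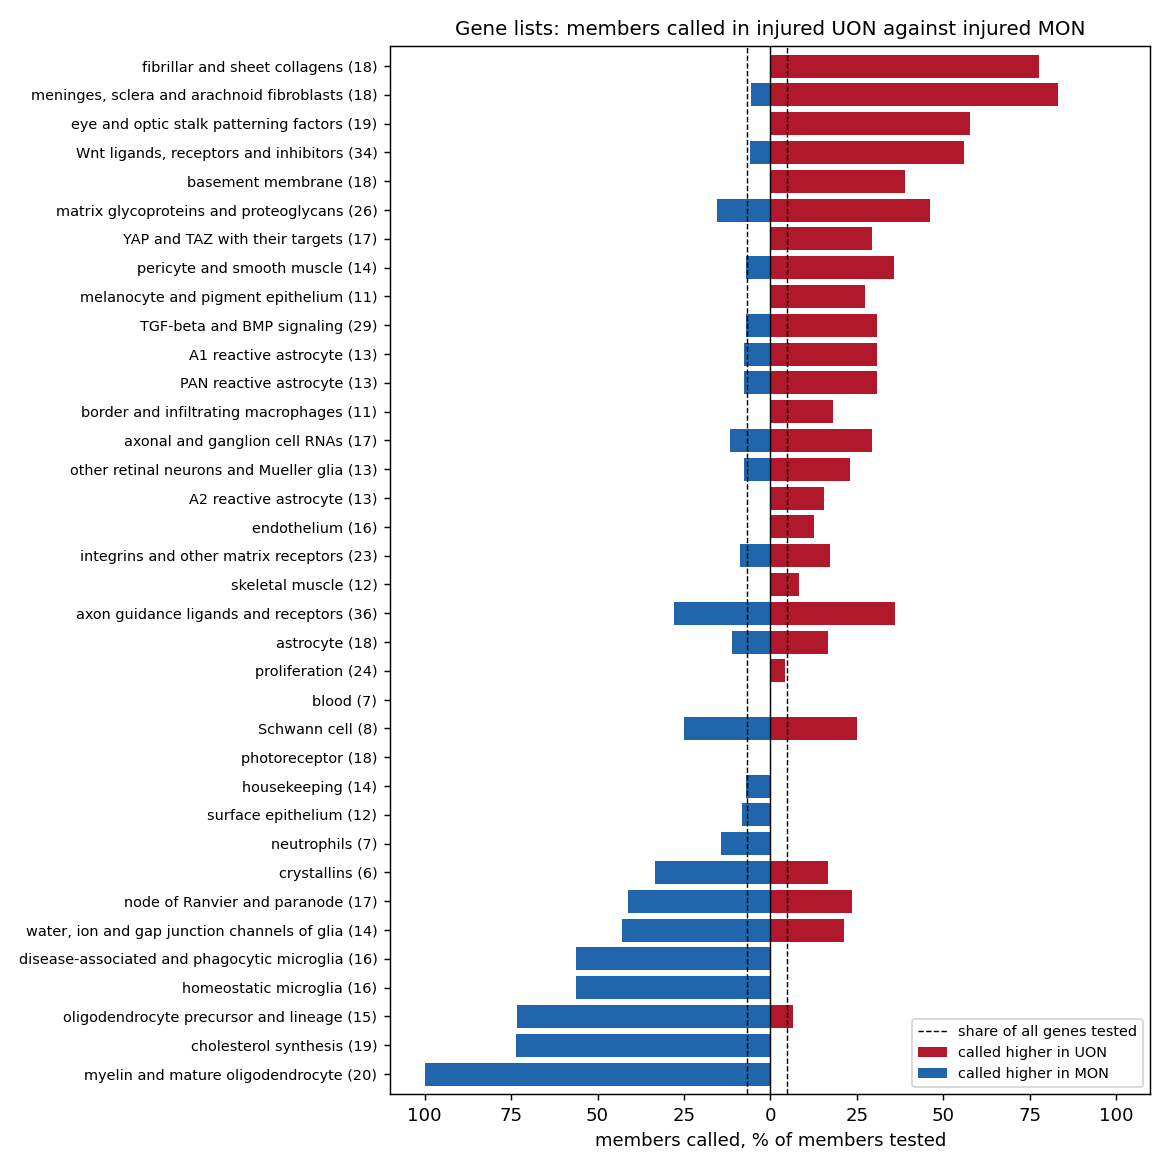
Share of each gene list called higher in UON (bars to the right) and higher in MON (bars to the left), in percent of the members tested, with the number tested beside each name. Dashed lines mark the shares over all 26201 genes, 4.92% and 6.66%. Collagen, meningeal, eye patterning and Wnt lists reach furthest to the right, and myelin, cholesterol, lineage and microglial lists furthest to the left.

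Genes of the fibrous extracellular matrix were higher in UON. Of 18 fibrillar and sheet collagen chains, 14 were higher in UON and none in MON (median 1.59). Col1a2, a chain of type I collagen, ranged from 918 to 1950 CPM in UON and 85.1 to 400 in MON (3.05 ± 0.24), without overlap. Col9a1 (3.05 ± 0.30) and Col9a2 (2.65 ± 0.24), chains of the fibril-associated type IX, were alike in size, while their partner Col9a3 reached only 0.64 ± 0.15. All type VI chains on the list, Col6a1, Col6a2 and Col6a3, were higher in UON by 1.64 to 1.83. Among matrix glycoproteins and proteoglycans, 12 of 26 were higher in UON and 4 in MON. The small leucine-rich proteins Fmod (3.20 ± 0.37) and Ogn (3.68 ± 0.64), the elastic fiber proteins Efemp1 (3.08 ± 0.46) and Fbln5 (3.04 ± 0.41), and the collagen-binding Sparc (1.72 ± 0.15, 6040 to 9920 CPM in UON and 1100 to 3650 in MON) led the first group. The 4 higher in MON were Ncan, Tnr, Bcan (−1.97 ± 0.21) and Acan (−6.29 ± 1.29, with at most 3.3 CPM in any library), the brain type of matrix that surrounds neurons and nodes.

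Basement membrane genes leaned the same way, with 7 of 18 higher in UON and a median of 0.87. Col18a1, the source of endostatin, was the largest at 2.13 ± 0.28, and the perlecan gene Hspg2 (1.64 ± 0.26) and the laminin chains Lamb2 (1.32 ± 0.29) and Lama4 (1.51 ± 0.36) were also called. The main vascular chains Col4a1 (0.60 ± 0.27) and Lamc1 (0.75 ± 0.24) were not. The list's median ran from 0.02 at crush 2W to 1.61 at glaucoma 6W, and was 1.81 in naïve nerve. Matrix receptors were less divided, with 4 of 23 higher in UON, among them the laminin receptors Itga3 (1.06 ± 0.15) and Itgb4 (1.23 ± 0.20), and 2 higher in MON, Itga7 (−1.51 ± 0.25) and Itgb3 (−1.77 ± 0.56). The UON and MON shares of the receptor list were 17.4% and 8.7%, against 4.92% and 6.66% of all genes.

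Markers of meninges, sclera and arachnoid moved with the matrix genes. Of 18 such genes, 15 were higher in UON and 1, Pdgfra, in MON (median 2.52), and 6 of the 18 are also on the collagen, glycoprotein or Wnt lists. Their sum was 2480 to 36100 CPM in UON and 1350 to 6260 in MON, with Ptgds, the prostaglandin D synthase of the arachnoid, as the largest part of that sum (775 to 31700 and 420 to 4750 CPM, 2.86 ± 0.54). The transporter Slc6a13 (3.86 ± 0.81), the retinoic acid enzyme Aldh1a2 (3.28 ± 0.70) and the fibroblast factors Foxc1 (2.34 ± 0.29) and Tbx18 (2.25 ± 0.33) belonged to the same group. UON glaucoma 6W male was lowest of the UON libraries in this sum (2480 CPM), in the sum of the 18 collagen chains (2000 CPM, against 2440 to 6050 in the other 9), in Col1a2 (918 CPM) and in Ogn (4.99 CPM), while its Sparc was 7960 CPM. Without that library 14 of the 18 collagen chains were called, and without the 2 MON libraries with epithelial RNAs 11 of the collagen chains and 12 of the 18 meningeal genes. The part of meningeal tissue in the matrix differences was not tested.

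Signaling genes of 3 pathways followed. Of 29 TGF-beta and BMP genes, 9 were higher in UON and 2 in MON (median 0.57). That is 31% of the list in UON, against 4.92% of all genes. The 6.9% in MON is near the 6.66% of all genes. Among ligands, Tgfb2 (chr1:186622792-186705989) ranged from 973 through 1220 to 1590 CPM in UON and from 121 through 260 to 540 in MON (2.18 ± 0.19, adjusted p = 2.22e-07), without overlap. Its relatives Tgfb3 at 0.28 ± 0.17 and Tgfb1 at −0.50 ± 0.34 were not called, and Tgfb1 did not exceed 4.81 CPM anywhere. Gdf10, a BMP-like ligand, was higher in UON by 3.80 ± 0.44, Bmp6 by 2.77 ± 0.56, Bmp7 by 2.65 ± 0.62 and Bmp4 by 1.72 ± 0.52. Ltbp1, which stores latent TGF-beta in the matrix, was higher by 2.95 ± 0.27, and the co-receptor Tgfbr3 by 1.57 ± 0.32. The signaling receptors Tgfbr1 (−0.76 ± 0.20) and Tgfbr2 (0.08 ± 0.26) were not called. Of the response genes, Id1 (0.20 ± 0.17) and Id3 (−0.32 ± 0.17) were not called, and the inhibitor Smad7 (−1.14 ± 0.25) and Id2 (−1.26 ± 0.19) were higher in MON.

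The Wnt list had the largest number of UON calls, 19 of 34, with 2 in MON and a median of 1.48. As a share that is 55.9%, against 4.92% of all genes. The shares of the meningeal (83.3%), collagen (77.8%) and eye patterning (57.9%) lists were larger. The 2 MON calls are 5.88% of the list, under the 6.66% of all genes. It held ligands such as Wnt6 (3.80 ± 0.70), Wnt4 (2.45 ± 0.32) and Wnt5a (1.71 ± 0.24), receptors such as Fzd1 (2.36 ± 0.26, 191 to 465 CPM in UON and 27.4 to 135 in MON) and Fzd2 (2.67 ± 0.47), and secreted inhibitors or their relatives such as Wif1 (2.99 ± 0.31) and Dkk3 (1.86 ± 0.23, 852 to 2410 and 177 to 869 CPM). Ligands, receptors and inhibitors were thus higher together. Axin2, a common transcriptional target of the pathway, was also higher in UON, 8.82 to 19.8 CPM against 2.43 to 6.25 (1.52 ± 0.21), without overlap. The coreceptors Lrp5 (0.22 ± 0.37) and Lrp6 (0.67 ± 0.35) were not called. Wnt3 (−2.45 ± 0.41) and Wnt7a (−4.40 ± 1.03, at most 1.77 CPM) were the 2 higher in MON.

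YAP and TAZ carry mechanical signals to the nucleus, and 5 of 17 genes of that list were higher in UON and none in MON (median 0.76). The 5 are 29.4% of the list, against 4.92% of all genes. The called genes were Yap1 itself (1.3 ± 0.24, without overlap), its partner Tead2 (1.47 ± 0.28), the regulator Ptpn14 (1.88 ± 0.33) and the targets Ccn2 (1.53 ± 0.41) and Tgfb2, which is also counted above. Wwtr1, the gene of TAZ, was higher in UON in 10 of 10 pools but under the fold limit (0.95 ± 0.15), and the targets Ccn1 (0.10 ± 0.38) and Amotl2 (−0.12 ± 0.18) were not called. The list's median ran from 0.30 at crush 2W to 1.01 at glaucoma 6W, and was 1.75 in naïve nerve. The lean to UON was thus also present without injury. In naïve nerve Yap1 overlapped, with 28.1 and 11.7 CPM in UON and 17.6 and 24.9 in MON.

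Astrocyte genes did not divide as a list. Of 18, 3 were higher in UON, 2 in MON, and the median was 0.02. Slc1a3, the glutamate transporter GLAST, was higher in UON (2280 to 5360 CPM against 291 to 2110, 1.61 ± 0.24, without overlap), whereas Slc1a2, the related GLT-1, was not called (−0.43 ± 0.24). The gap junction genes Gja1 and Gjb6 (2.07 ± 0.54, adjusted p = 0.0113, and 0.0623 with the block) were higher in UON. Aqp4, the water channel of astrocyte end feet, was higher in MON (−1.09 ± 0.30), with a MON range of 72.3 to 1320 CPM that enclosed the UON range of 195 to 528, and so was the adhesion protein Hepacam (−1.18 ± 0.19). MON crush 3D male was the lowest MON library for Gfap (6080), Gja1 (67.2), Slc1a3 (291) and Aqp4 (72.3). Aldh1l1 (−0.05 ± 0.15) and the potassium channel Kcnj10 (0.33 ± 0.22) were not called.

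Of 14 glial channel genes, 3 were higher in UON and 6 in MON. The astrocyte connexins were higher in UON, and the oligodendrocyte connexins Gjc3 (−2.94 ± 0.28) and Gjb1 (−2.78 ± 0.40) were higher in MON. Kcnj16, a partner of Kcnj10, was higher in MON by −2.34 ± 0.30 without overlap. The stretch-gated Piezo1 (0.32 ± 0.30), Piezo2 (−0.92 ± 0.15, higher in MON in 10 of 10 pools) and Trpv4 (0.41 ± 0.26) were not called.

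Reactive astrocyte genes had more UON than MON calls. In the PAN list 4 of 13 were higher in UON, namely Cp, Timp1, Vim (1.15 ± 0.14, 3180 to 6510 CPM against 1230 to 2560, without overlap) and Osmr, and 1 in MON, Aspg (−1.87 ± 0.24). In the A1 list 4 of 13 were higher in UON, among them Serping1 (1.46 ± 0.31) and H2-T23 (1.10 ± 0.18, of a gene family whose members share sequence), and Ggta1 was higher in MON. In the A2 list 2 of 13 were higher in UON, Sphk1 (2.00 ± 0.48) and Ptx3 (1.25 ± 0.30). The UON calls were 30.8%, 30.8% and 15.4% of the PAN, A1 and A2 lists, against 4.92% of all genes. The single MON calls of the PAN and A1 lists were 7.69% of each, near the 6.66% of all genes. The marker C3 had a UON median of 249 and a MON median of 322 CPM (−0.50 ± 0.49) and was not called. The A1 call of Fbln5 is the same gene as in the matrix list. The medians of the PAN, A1 and A2 lists were 0.93, 0.70 and 0.19 in injured nerve and 1.22, 1.07 and 1.38 in naïve nerve. The lean to UON was thus also present without injury.

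RNA of homeostatic microglia was lower in UON. Of 16 genes of homeostatic microglia, 9 were higher in MON and none in UON (median −1.13), among them the complement chains C1qa (−1.13 ± 0.21), C1qb (−1.16 ± 0.19) and C1qc (−1.14 ± 0.19), the lipid receptor Trem2 (−1.3 ± 0.23) and the survival receptor Csf1r (−1.27 ± 0.20, 153 to 400 CPM against 420 to 1020, without overlap). Csf1, a ligand of that receptor, was the steadiest gene of the microglial lists, with 42 to 95.9 CPM in UON and 154 to 217 in MON (−1.24 ± 0.12, adjusted p = 8.17e-07). Tmem119 was higher in MON in 10 of 10 pools but just under the fold limit (−0.98 ± 0.16), and Cx3cr1 was not called (−0.70 ± 0.85).

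Many genes of the disease-associated, phagocytic state were also higher in MON, with values that differed from group to group. Of 16, 9 were higher in MON and none in UON (median −1.42), but only 3 of the 16 were higher in MON in 10 of 10 pools. The list summed to 9560 to 31200 CPM in UON and 10100 to 53000 in MON, and the sum was higher in UON in 4 of 10 pools. Gpnmb, a lysosomal membrane protein of lipid-laden phagocytes (chr6:49036546-49070929), ranged from 77.4 to 236 CPM in UON over all groups. In MON it was 1170 and 2540 at 3 D after crush (female, male), 2180 and 649 at 2 W after crush, 757 and 255 at 3 D of glaucoma, 329 and 367 at 2 W, and 160 and 150 at 6 W. Its regional difference was −3.95 ± 0.63 and −2.71 ± 0.60 at the 2 crush times, −1.67 ± 0.57, −1.85 ± 0.57 and −0.62 ± 0.56 at the 3 glaucoma times, and −0.77 in naïve nerve. For the list, the median was −2.18 at crush 3D, −1.43 at crush 2W, −0.90, −1.70 and 0.14 at 3 D, 2 W and 6 W of glaucoma, and 0.57 in naïve nerve. The lipase Lpl (−2.08 ± 0.41), the integrin Itgax (−1.94 ± 0.42), Cd68 and Clec7a (−1.52 ± 0.31) were called over the 10 pools. Spp1, osteopontin, spread from 31.9 to 16700 CPM within MON and was not called (−2.40 ± 0.91). Apoe (0.16 ± 0.48) and Axl (0.23 ± 0.19) were not called. The regional difference of 10 of the 16 genes was unlike between injured and naïve nerve at an unadjusted p under 0.05, against 6.09% of all genes, and none passed after adjustment.

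Of 11 border macrophage genes, Lyve1 (2.11 ± 0.72) and Mrc1 (1.21 ± 0.33) were higher in UON, at medians of 5.10 and 5.10 CPM, and none was higher in MON. They are 18.2% of the list, against 4.92% of all genes. Of 7 neutrophil genes, Csf3r, which microglia also express, was higher in MON (−1.46 ± 0.20), which is 14.3% of the list against 6.66% of all genes. The granule genes S100a8 and S100a9 had medians under 1 CPM in both regions. Of 24 proliferation genes, 1 was higher in UON, the centromere protein Cenpf (1.87 ± 0.29), and none in MON. That 1 gene is 4.17% of the list, under the 4.92% of all genes called higher in UON. The summed level of the 24 genes after crush at 3 D was 1480 and 914 CPM in UON and 1220 and 1480 in MON, and at 6 W of glaucoma it was 157 and 137 in UON and 194 and 129 in MON.

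**Figure D4:**
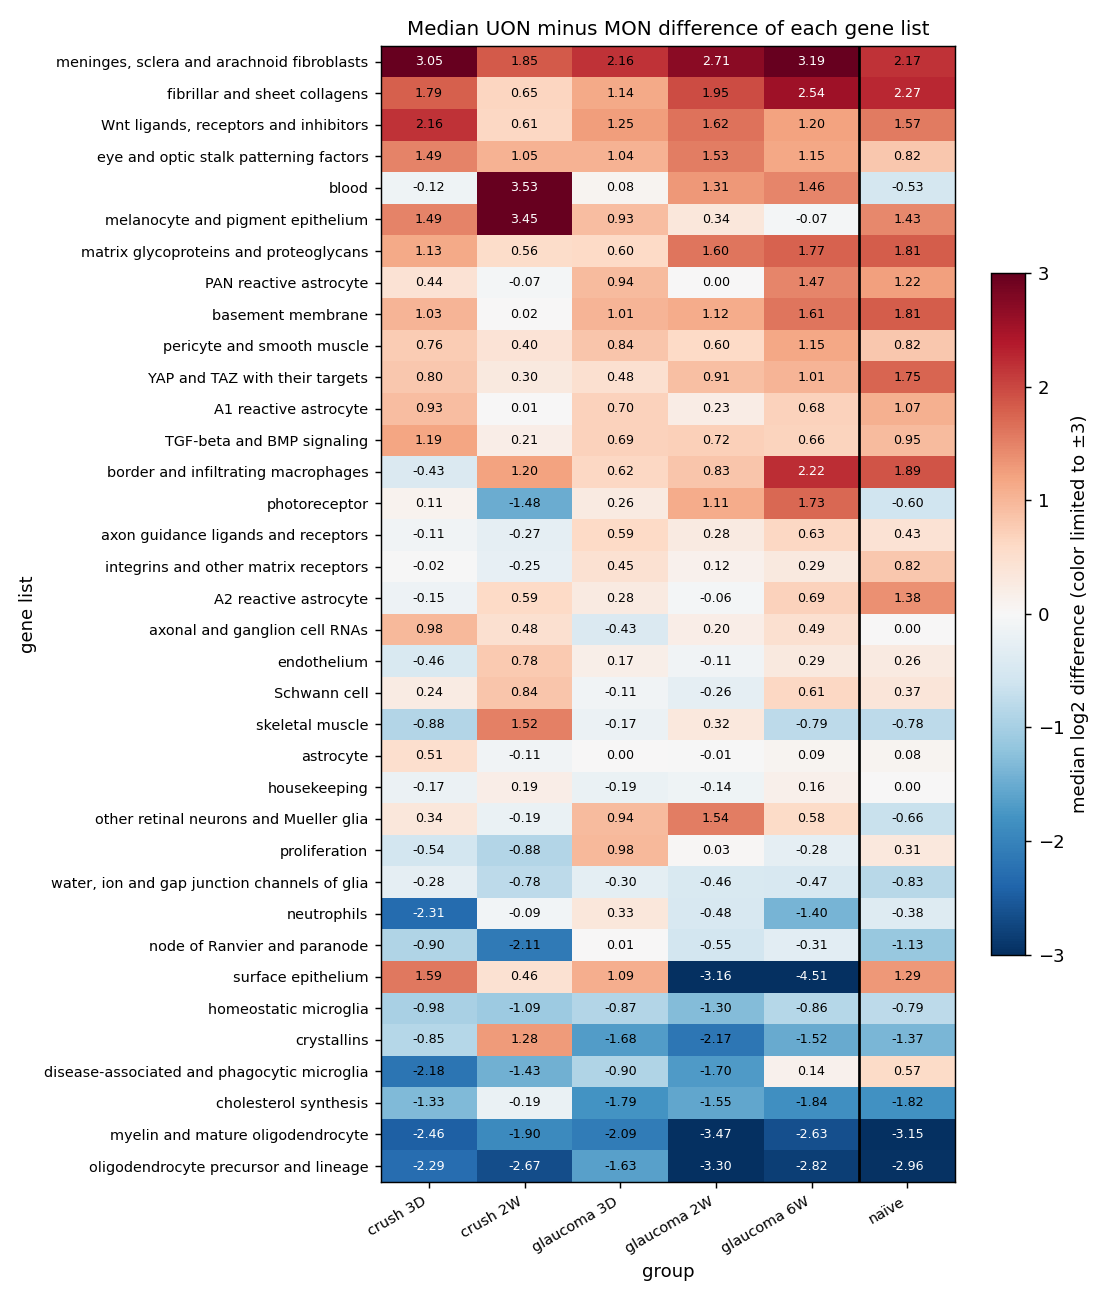
Median difference (UON minus MON, log2) of each gene list in each of the 5 injury groups and in naïve nerve, with red higher in UON and blue higher in MON. Each injury group rests on 2 pools. Myelin and lineage lists are blue and meningeal and Wnt lists red in all columns, cholesterol synthesis pales at crush 2W, and disease-associated microglia run from blue after crush to pale at glaucoma 6W.

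Genes of the node of Ranvier and paranode were divided, with 4 of 17 higher in UON and 7 in MON. The oligodendrocyte and axon proteins of the paranode and juxtaparanode were higher in MON: Nfasc (−2.0 ± 0.15, 37.6 to 108 CPM against 177 to 332), Epb41l3 (−2.35 ± 0.15), Cntn1 (−2.56 ± 0.25), Cntn2 (−2.72 ± 0.46) and the potassium channel Kcna1 (−3.05 ± 0.48). All but Cntn2 were without overlap. Cntnap2 (chr6:45059357-47304213), the partner of Cntn2 at the juxtaparanode, went the other way, with 28.9 to 116 CPM in UON and 1.45 to 4.97 in MON (4.32 ± 0.33, adjusted p = 1.28e-07). Gldn, gliomedin, was also higher in UON (1.12 ± 0.19). The sodium channels Scn2a (−0.09 ± 0.27) and Scn8a (−0.17 ± 0.34) were not called, with medians under 10 CPM.

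RNAs named for axons and ganglion cells were mixed. Uchl1, a neuronal ubiquitin hydrolase, was higher in UON without overlap (141 to 239 CPM against 54 to 99.4, 1.34 ± 0.13). The neurofilament genes Nefm (1.62 ± 0.26) and Nefh (3.15 ± 0.49) were also called there. Nefh was 0.614 and 0.0668 CPM in UON and 0 and 0.219 in MON at crush 2W, and 49 to 145 CPM in the other 8 UON libraries. Tubb3 (−2.0 ± 0.31) and Gap43 (−1.48 ± 0.27) were higher in MON in 10 of 10 pools.

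Axon guidance genes had many calls on both sides, 13 of 36 higher in UON and 10 in MON (median 0.23). The repellents Slit2 (107 to 517 CPM against 22.7 to 108, 2.06 ± 0.30) and Sema3a (3.44 ± 0.59), the receptors Robo2 (1.69 ± 0.26) and Ephb2 (2.17 ± 0.24), the ephrin Efnb2 (2.39 ± 0.25) and the netrins Ntn1 (1.63 ± 0.23) and Ntn4 (1.60 ± 0.23) were higher in UON. On the MON side stood Sema4d (16.2 to 171 CPM against 262 to 553, −2.43 ± 0.28), an inhibitor made by oligodendrocytes, the ephrin Efnb3 (−2.86 ± 0.29), the netrin receptors Dcc (−3.14 ± 0.54) and Unc5b (−2.33 ± 0.29), and Ephb1 (−2.28 ± 0.31). Netrin ligands and netrin receptors were thus higher in opposite regions. Slit2 and its receptor Robo2 were higher in the same region.

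Of 16 endothelial genes, the thyroid hormone transporter Slco1c1 (3.21 ± 0.33, 26.7 to 158 CPM against 4.51 to 20.1) and the junction protein Cdh5 (1.79 ± 0.31) were higher in UON, and none was higher in MON. They are 12.5% of the list, against 4.92% of all genes. Pecam1 (−0.03 ± 0.29), Kdr (−0.19 ± 0.21) and Cldn5 (0.64 ± 0.27) were not called. Slco1c1 is also made by astrocytes. Of 14 pericyte and smooth muscle genes, 5 were higher in UON, with Cnn1 (3.84 ± 0.62) and Acta2 (2.52 ± 0.42) the largest, and Cspg4, shared with the precursors, was higher in MON. These shares are 35.7% and 7.14%, against 4.92% and 6.66% of all genes.

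Neighboring tissues were looked for in their own markers. No photoreceptor gene of 18 was called, and their sum was 36.2 to 470 CPM in UON and 34 to 178 in MON. Of 13 genes of other retinal neurons and Mueller glia, Trpm1, Dkk3 and Rlbp1 (1.55 ± 0.21) were higher in UON and Slc6a9 (−1.96 ± 0.17) in MON. That is 23.1% and 7.69% of the list, against 4.92% and 6.66% of all genes. Pigment cell genes summed to 78.1 to 168 CPM in UON and 20 to 64.2 in MON, and 3 of 11 were higher in UON. Tyrp1 and Pmel among them had medians of 0.474 and 2.41 CPM, and Rlbp1, which glia also use, made up most of the sum. No blood gene of 7 was called. Of 12 muscle genes, Tnnt3 was higher in UON at a median of 1.97 CPM (8.33% of the list, against 4.92% of all genes). Of 12 surface epithelium genes, Epcam was higher in MON (−4.38 ± 1.41, adjusted p = 0.0345, and 0.0989 with the block), which is 8.33% of the list against 6.66% of all genes. Its highest value was 7.62 CPM, and Epcam was not called without the 2 MON libraries that carried such RNAs. The crystallin Crygs was higher in UON (3.27 ± 0.28), and the low Crybb1 and Cryba4 were higher in MON. Of 8 Schwann cell genes tested, the receptor Ngfr (2.36 ± 0.40) and Cdh19 (1.04 ± 0.21) were higher in UON and Pou3f1 (−3.35 ± 0.69) and Drp2 (−1.71 ± 0.42) in MON. Pmp2, a myelin protein gene of Schwann cells, had too few counts to be tested. Of 14 housekeeping genes, with a list median of 0, 13 were not called, and Actb was higher in MON (−1.37 ± 0.29). That is 7.14% of the list, near the 6.66% of all genes.

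**Figure D5:**
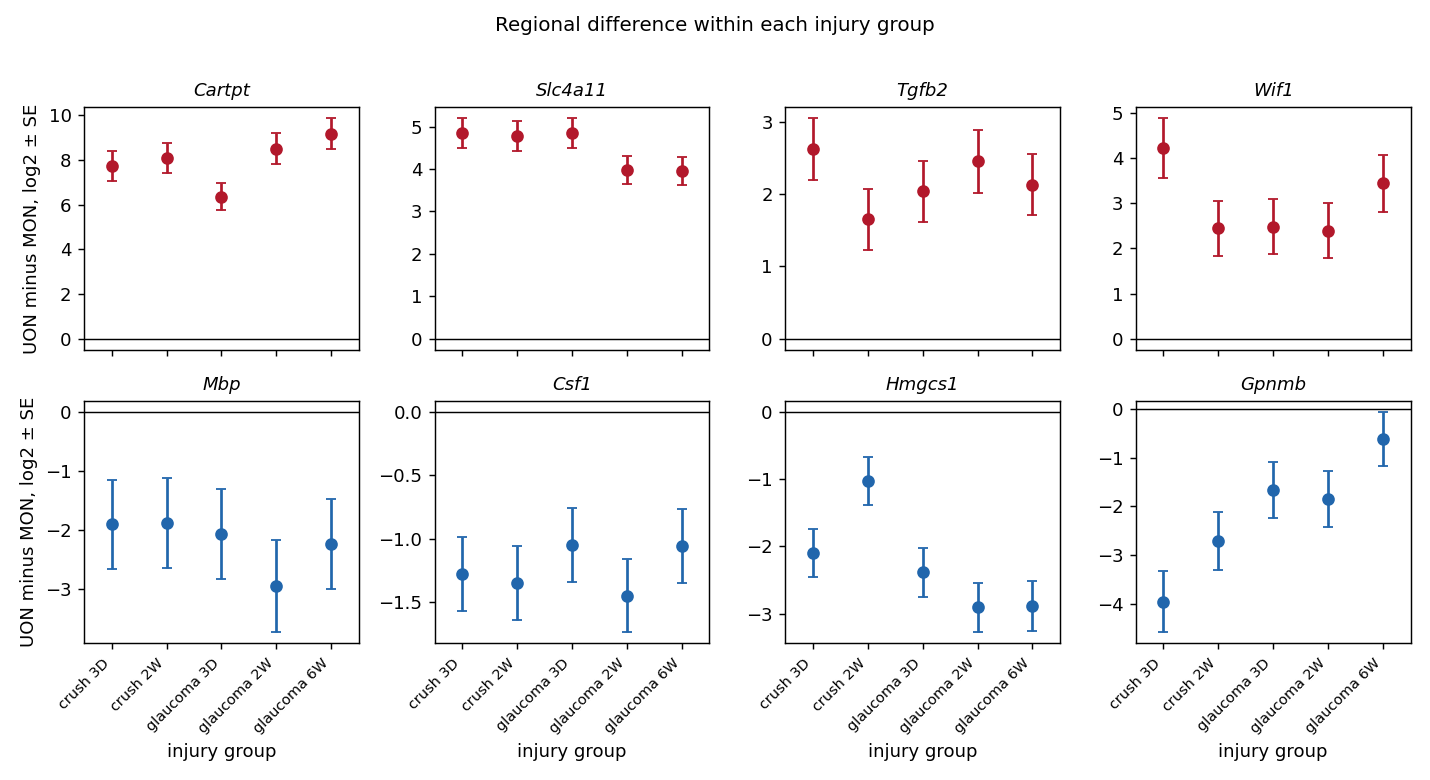
Regional difference (UON minus MON, log2, ± SE) of 8 genes in each of the 5 injury groups, with 2 pools in each group, from 1 fit of 20 libraries. Cartpt, Slc4a11, Tgfb2 and Wif1 are above 0 and Mbp and Csf1 below 0 in all groups, while Hmgcs1 comes nearest 0 at crush 2W and Gpnmb at glaucoma 6W.

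Within the 5 groups the signs were mostly shared. Of the 1290 UON genes, 1194 (92.6%) had a positive difference in each of the 5 injury groups, and of the 1745 MON genes, 1626 (93.2%) had a negative one in each. Since the pooled call uses the same libraries, these shares describe the calls and do not test them. Within a group of 2 pools, 42 of the UON genes and 41 of the MON genes were called in all 5 groups, and 715 and 1052 in none. Calls per group ran from 86 higher in UON and 98 in MON at glaucoma 3D (0.328% and 0.374% of all genes) to 662 and 482 at crush 3D (2.53% and 1.84%). The shares were 0.927% and 1.69% at crush 2W, 1.11% and 2.04% at glaucoma 2W, and 1.63% and 1.47% at glaucoma 6W.

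Naïve nerve, from other mice, is a measure the comparison did not use. There 1228 of the 1290 UON genes (95.2%) and 1633 of the 1745 MON genes (93.6%) had the same sign, 451 (35%) and 515 (29.5%) were called in the same direction, against 3.25% and 2.48% of all genes tested in naïve nerve, and none of the members was called in the opposite one. The median of the UON genes was 1.74 in injured and 1.87 in naïve nerve, and that of the MON genes −2.05 and −2.01. Cartpt was 5560 and 3960 CPM in naïve UON and 8.69 and 11.4 in naïve MON, Tgfb2 was 1280 and 1370 against 255 and 217, and Mog was 114 and 87 against 1190 and 1020.

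A change in regional difference was then tested. Among the 5 injury groups, 1 gene of 26201 (0.00382%) varied, with 1394 at an unadjusted p under 0.05 against 1310 expected if no gene varied. Between crush and glaucoma at 3 D and 2 W, the same gene was called (0.00382%), with 1622 at an unadjusted p under 0.05. These counts were 14 and 3 with the pool of mice as a block, 393 and 80 by DESeq2, 193 and 321 without UON crush 2W female, and 11 and 4 without UON glaucoma 3D male. Between injured and naïve nerve no gene was called (0%) of 27498, with 1602 at an unadjusted p under 0.05 and 99 called by DESeq2. Without MON naïve female 5 genes were called. The gene was Gm3226, a predicted gene outside the rule for naming, given here because the count is 1. It had 1.32 and 0.569 CPM in the 2 MON libraries of crush 3D and 50.1 to 122 in the other 8 MON libraries, while UON ranged from 19.9 to 85.5. Its regional difference was 6.12 at crush 3D and −0.34 to −1.49 elsewhere. In simulated counts a change of 2 on the log2 scale was called in 105 of 200 genes among the 5 groups, in 120 of 200 between crush and glaucoma and in 91 of 200 between injured and naïve nerve, against 195 of 200 for the region itself. For the first 2 of these counts the change was placed in UON of both crush groups, so a change in 1 group alone was not simulated. The changed genes had means above 1 CPM, the spread followed the trend over genes, and no library was set apart. Rates in the real libraries may therefore differ.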

How the data were processed

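RNA of 24 optic nerve libraries (20 injured, 4 naïve) was analysed. The retina libraries (12 columns of the count table) were not used here. Per the study's methods and the submitters' processing notes, the authors aligned paired reads with HISAT2 2.2.1 to GRCm38, assembled with StringTie 1.3.0 on Gencode annotation, and derived estimated counts per gene with StringTie's own count script. The deposited estimated counts are coverage turned into reads, so a count is not 1 sequenced read, and whether strand was used is not given in the sources used here. Reads of overlapping or near-identical genes may therefore be shared. The deposited FPKM values, scaled by the authors to gene length and library size, were used only for an alternative. After centring each gene, 20 of 20 count columns correlated best with the FPKM of their own sample. In some libraries the deposited FPKM column holds values slightly below 0, so it was treated as a score and those values were set to 0.

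Estimated counts were rounded and tested in edgeR 4.0.16 (R 4.3.3) with TMM scaling, filterByExpr (minimum count 10, minimum total 15, by region and group) and the robust quasi-likelihood test, with injury group, sex and region as terms. Genes were called at a Benjamini-Hochberg adjusted p under 0.05 over all genes tested and a log2 difference beyond 1. SE is the log2 difference divided by the square root of F. CPM values are TMM-scaled, from the 20 injured libraries for single genes and from 24 for list sums and naïve values. Regional differences by group and their changes came from a fit with a term for each region in each group. Each library is a pool of 2 mice, so p-values measure the spread between pools. UON and MON of a pool came from the same mice, which is the source of the pairing, and deviations of paired libraries from their group means correlated at 0 to 0.1 by group. Alternatives were DESeq2 1.42.0, other size factors, no filter, no sex term, the pool as a block, crush or glaucoma libraries alone, no fold limit, limma 3.58.1 on log2(FPKM + 1), and leaving out each library in turn with the dispersion trend of all libraries. A newer form of the edgeR test and the fit without the 2 MON libraries with epithelial RNAs were added after seeing the data. The fits were tested on simulated data, where 195 of 200 changed genes were recovered for the region and 4 unchanged genes were called.

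The libraries compared, the 36 gene lists and the tests were chosen with earlier results of these data known. Genes were named by rule: the identity markers, up to 5 called genes per list and direction with the same sign in 10 of 10 pools, and over all genes the 10 largest in each direction with a mean of at least 5 CPM in the higher region and an official symbol. List members that were not called were named freely. A further 51 called genes were named after their values were seen, among them Trf, C1ql1, Idi1, Sqle, Cyp51, Ptgds, Bmp7, Bmp4, Fzd1, Axin2, Gjb6, the C1q chains, Nfasc, Nefh and Epcam, as was Gm3226. Some genes that the rule takes are not reported here.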

Additional observations from a re-analysis of the deposited data

Results flagged for a closer look

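In each region the 208 genes named above were screened for a library far from the other 9 (Dixon's test at 95% on log2(CPM + 1)). Of 416 groups of 10 libraries, 37 held such a library, where chance flags about 1 in 20, or 21. Of the 37, 11 belonged to UON crush 2W male and 10 to MON crush 3D male. Values below are CPM, with the nearest other library of that region after "against".

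UON crush 2W male was low for Mbp (1640 against 6310), Trf (2090 against 4640), Upk3a (3.33 against 8.33), Gdf10 (142 against 302), Trpv4 (2.91 against 6.04) and Kcna1 (3.56 against 17). It was high for Ggta1 (29.6 against 8.52), Cldn5 (95.7 against 48.7), the pigment cell genes Tyrp1 (5.78 against 1.59) and Pmel (13.8 against 5.57), and the muscle gene Tnnt3 (5.97 against 2.83).

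MON crush 3D male was low for the astrocyte genes Gfap (6080 against 9430), Slc1a3 (291 against 931) and Aqp4 (72.3 against 290), for Gpr17 (8.24 against 55.2), Sparc (1100 against 1940), Slit2 (22.7 against 54.7), Robo2 (0.804 against 2.12), Sema4d (262 against 390) and Drp2 (1.26 against 8.39). It was high for Piezo2 (90.8 against 55.1).

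UON glaucoma 6W male was low for C1ql1 (0.993 against 6.03), Ogn (4.99 against 29.8) and Fzd2 (3.09 against 20). UON glaucoma 3D female was high for Plpp4 (2.14 against 0.787), Smad7 (24.2 against 8.58) and Scn8a (9.66 against 3.57). UON crush 2W female was high for Lpl (119 against 9.64) and S100a9 (4.95 against 1.09). MON crush 2W female was low for Ugt8a (84.6 against 288) and high for Acan (3.3 against 0.706). The others were Flt1 in MON glaucoma 2W female (60.3 against 35.4), Lamc1 in MON crush 3D female (41.8 against 67.8), Scn8a in MON glaucoma 6W female (1.17 against 2.38), Wnt7a in UON crush 3D female (0.484 against 0.156), Acan in UON crush 3D male (0.0689 against 0) and Tyrp1 in MON glaucoma 6W male (0.206 against 0). The last pair are single low values beside zeros.

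The regional difference of Gm3226 varied among the 5 groups (adjusted p = 0.000421, edgeR quasi-likelihood test), from 6.12 ± 0.46 at crush 3D to −1.49 ± 0.36 at glaucoma 2W. The crush difference exceeded the glaucoma difference by 3.93 ± 0.38 at matched times (adjusted p = 0.000852). The 2 MON libraries of crush 3D carry the change, and whether its reads are shared with a near-identical copy was not tested.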

How the results depend on the processing

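Against 1290 UON and 1745 MON calls, the crush libraries alone gave 437 and 558, limma on log2(FPKM + 1) gave 734 and 836 with fewer genes tested, and dropping the fold limit gave 2502 and 2804. Leaving out each library in turn gave 1163 to 1440 and 1533 to 1736. Other settings stayed within 1.5 times, and no called gene took the opposite call in any of them. The genes whose regional difference varied among injury groups numbered 1, against 393 by DESeq2, 19 without a filter, 3 without the sex term, 14 with the pool of mice as a block, and 1 to 193 with 1 library left out. Between crush and glaucoma the count of 1 became 80 by DESeq2, 2 without a filter, 2 without the sex term, 3 with the block, and 1 to 321 with 1 library left out. Both maxima came without UON crush 2W female, which leaves the male library of that group alone and assumes that it varies like the others. Between injured and naïve nerve the count of 0 became 99 by DESeq2 and 0 to 5 with 1 library left out. The causes of these shifts were not tested. Some of the settings also held fewer samples or genes, and the part of that in the shifts was not tested either.

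Of the 165 called genes named, the call was lost for 0 by DESeq2, 4 without a filter (Itgb3, Bmp4, Lyve1, Epcam) and 1 without the sex term (Cryba4). It was lost for 83 in the 8 crush libraries, 20 in the 12 glaucoma libraries, and 9 without the 2 MON libraries with epithelial RNAs. By limma on FPKM it was lost for 22 of the 162 that had a value there. The replicate block lost 3 (C1ql1, Gjb6, Epcam) and changed no other call of a named gene. None was reversed. With 1 library left out, Lyve1 lost its call in 12 fits (1.81 to 2.59), Epcam in 10 (−4.97 to −3.26), Itgb3 in 8 (−2.12 to −1.56), Bmp4 (1.28 to 2), Cryba4 (−2.11 to −1.57) and Cdh19 (0.88 to 1.16) in 6 each, Aqp4 in 3 (−1.28 to −0.96), Osmr in 2 (0.95 to 1.2) and C1ql1 in 1, without UON glaucoma 3D male (1.26 to 1.73 over all). With 2 pools a group, regional changes between groups are estimated far less closely than the regional difference itself.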
